A study of Sus scrofa with 12 samples.

Results

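Some m6A peaks of pig muscle lie wholly inside one internal exon, an exon that is neither the first nor the last of its transcript, and cross no splice junction. They were chosen from the 6 deposited peak lists by 3 conditions: an annotation as exon i of n, an i above 1 and below n, and a single block of exonic sequence. The conditions found 1353 of 13487 peaks, in 394 of 2162 genes. The lists come from longissimus dorsi, the long back muscle, sampled at 5 days of age in the breeds Large White and Ningxiang, with 3 immunoprecipitated samples and 3 input samples per breed. The study asked which m6A-modified mRNAs take part in muscle development in these breeds. Both breeds were sampled at the same age and from the same muscle, and the labels give no treatment, genotype or sex. Replicates are numbered, but no label ties a number to an animal; p-values therefore reflect only the spread among these samples, which may be technical.

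N6-methyladenosine (m6A) is the most common internal modification of mRNA and is written by a methyltransferase complex onto adenosines in a short sequence context. It is known to be dense in long internal exons and around stop codons. Exon junction complexes, which the splicing reaction leaves near the junctions, keep the writer away from nearby sequence, so short internal exons carry little of it. In MeRIP-seq, fragments of mRNA pulled down with an m6A antibody are compared with the input fragments, and a stretch with more pulled-down reads than input is called as a peak. The fold of a peak is that enrichment on a linear scale. A peak shows where fragments were enriched and not which base is modified.

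The lists carry no read totals and depth is unknown; a site without a peak fell below the calling threshold and is not shown to lack m6A. Lists held 2214 to 2533 peaks of all classes in Large White and 2034 to 2222 in Ningxiang. The muscle was sampled in bulk, so fewer cells of a type and less RNA per cell cannot be told apart. Of 12 skeletal muscle markers 9 carried a peak somewhere in the lists, DES, MYH1, MYH2, MYH4, MYH7, MYOG, RYR1, TNNI2 and TNNT3. So did 3 of 4 fat, 2 of 4 fibroblast, 2 of 3 endothelial and 1 of 3 blood cell markers, and a peak list gives no expression level for any of them. Their part in the results was not tested.

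Internal-exon peaks within one exon made up about 1 in 10 peaks of every list. Large White lists held 248, 216 and 239 of them in replicates 1, 2 and 3, and Ningxiang lists 222, 206 and 222. The groups overlapped: Large White lists averaged 234 ± 16.5 peaks (SD, n = 3) and Ningxiang lists 217 ± 9.24 (exact two-sided permutation p = 0.3, adjusted p = 0.6 over 5 comparisons). As a share of all peaks of a list they were 9.88% ± 0.519 and 10.2% ± 0.611 (exact permutation p = 0.5, n = 3, adjusted p = 0.6). They fell in 156 ± 10.5 genes per Large White list and 149 ± 5.69 genes per Ningxiang list (exact permutation p = 0.4, n = 3, adjusted p = 0.6). The smallest p that 3 lists against 3 can give is 0.1. Cut to the 2034 strongest peaks per list, Large White minus Ningxiang turned to -12.7 peaks and -15 genes.

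Peaks of this kind were short, and their lengths ran in steps. Over all lists the median length was 208 bp, the quartiles 150 and 301 bp, the shortest 117 bp and the longest 1944 bp. Lengths fell within 1 bp of a multiple of 30 in 87.5% of peaks, so length was called on a grid of about 30 bp. The lowest steps were the fullest: 227 peaks measured 119 to 121 bp, 206 measured 149 to 151 bp and 194 measured 179 to 181 bp. Median lengths were 181, 209 and 208 bp in Large White and 181, 210 and 210 bp in Ningxiang. The medians differ by about 1 step of that grid and overlap between breeds (199 ± 15.9 against 200.3 ± 16.7 bp, SD, n = 3; exact permutation p = 0.6, adjusted p = 0.6). Their order turned without Large White replicate 1, to 8.17 bp for Large White minus Ningxiang, without Ningxiang replicate 2 or 3, to 3.83 bp, and with 2034 peaks taken per list, to 11.2 bp. Short lengths were not particular to these peaks. In single lists the median was 209 to 211 bp for internal-exon peaks that cross a junction. For exon-class peaks in the last exon it was 210 to 238 bp.

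**Figure D1:**
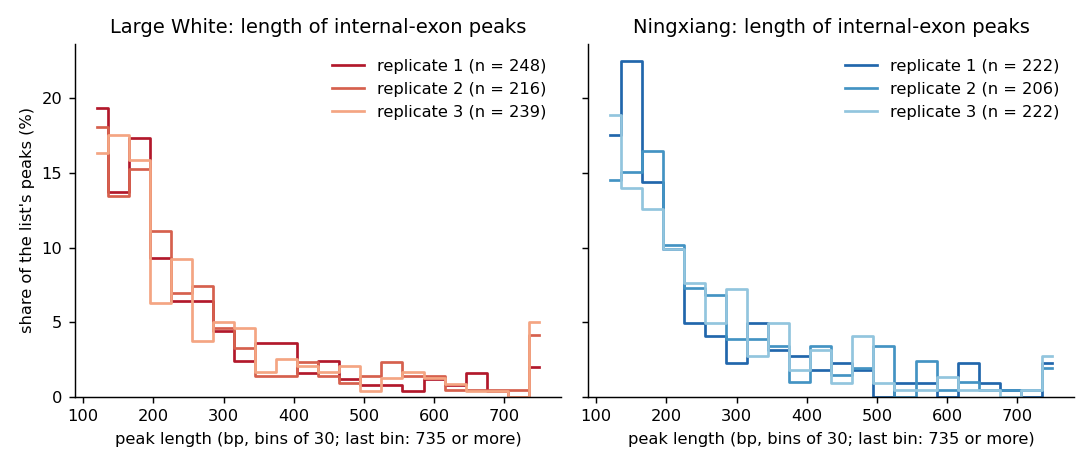
Share of internal-exon peaks within one exon (percent of the list's peaks of this kind, y axis) by peak length (bp, x axis, bins of 30 bp, longer peaks gathered in the last bin), 1 line per list, Large White left and Ningxiang right. All 6 lists pile up at the shortest lengths, with medians from 181 to 210 bp, and have a thin tail of long peaks.

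The tail of long peaks held 8.06%, 12.5% and 11.3% of the Large White peaks at 500 bp or more, and 7.66%, 10.7% and 7.21% of the Ningxiang ones. Large White replicate 1 lay inside the Ningxiang range, and the means, 10.6% ± 2.29 and 8.51% ± 1.89 (SD, n = 3), differed by about 1 SD (exact permutation p = 0.2, adjusted p = 0.6). All exonic sequence under these peaks came to 63.4, 60.1 and 67.1 kb in Large White and 55.8, 54.9 and 58.4 kb in Ningxiang. Every Large White list covered more than every Ningxiang list, and Large White lists also held more peaks on average. This sum was not tested. A tail of long peaks was shared by other classes. At 500 bp or more lay 6.81% to 10.2% of junction-crossing internal-exon peaks and 6.46% to 11.8% of exon-class last-exon peaks in single lists.

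Longer peaks carried higher folds and lower p-values within every list. Spearman's rho between length and fold ranged from 0.35 to 0.50 over the 6 lists, and between length and log10 p from -0.57 to -0.52, across 206 to 248 peaks a list. Length, fold and p come from the same reads and the same calling, so these are descriptions and not independent measures. In Large White replicates 1, 2 and 3 the median fold was 2.04, 2.075 and 1.93 for peaks under 149 bp and 3.51, 3.44 and 4.26 for those of 500 bp or more. In Ningxiang it was 2.11, 1.99 and 1.915 for the short ones and 2.81, 3.82 and 3.345 for the long ones. Every list thus had its long peaks above its short ones.

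Within each list, the median fold of peaks inside an internal exon lay between that of internal-exon peaks that cross a junction and that of exon-class peaks in the last exon. The medians were 2.48, 2.505 and 2.47 in Large White and 2.415, 2.615 and 2.605 in Ningxiang. Junction-crossing peaks had 2.36, 2.4 and 2.33 in Large White and 2.29, 2.38 and 2.4 in Ningxiang, so the peaks inside 1 exon were higher in 6 of 6 lists. The difference was 0.091 ± 0.029 on the log2 scale (SD over 6 lists), a ratio of 1.07 (exact two-sided sign-flip permutation p = 0.03125, the smallest that 6 lists allow; adjusted p = 0.0625 over 4 comparisons). Last-exon peaks had 2.73, 2.74 and 2.63 and then 2.58, 2.73 and 2.77. Peaks inside an internal exon were lower in 6 of 6 lists, by -0.10 ± 0.028 (SD) on the log2 scale (exact sign-flip permutation p = 0.03125, n = 6; adjusted p = 0.0625). Neither difference passed 0.05 after adjustment, and both are small beside the range of folds in a list, which ran up to 33.9. The deposited classes are uneven by strand: the last-exon class held 461 peaks on plus-strand and 2816 on minus-strand genes, and the 3′ untranslated class 1993 and 250. On plus-strand genes alone the difference from last-exon peaks was -0.30 (exact sign-flip permutation, adjusted p = 0.0417, n = 6) and that from junction-crossing peaks shrank to 0.041 (exact sign-flip permutation, adjusted p = 0.25, n = 6).

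**Figure D2:**
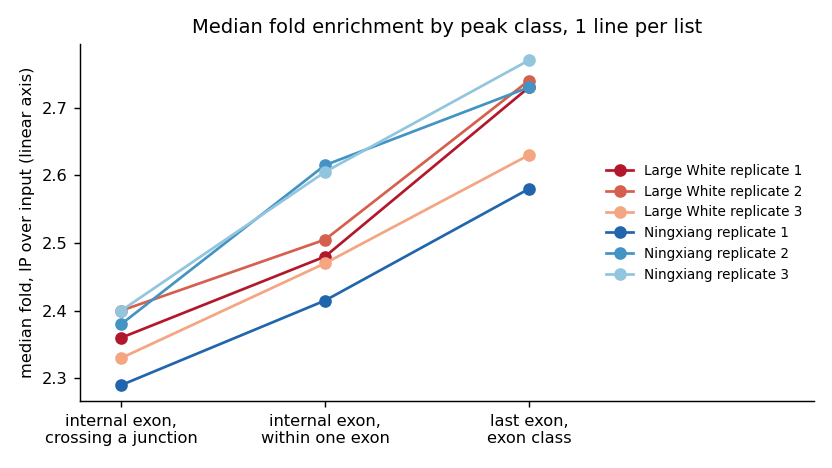
Median fold over input (y axis, linear, not from 0) of 3 classes of peak (x axis), 1 line per list, Large White in red and Ningxiang in blue. Each line rises from junction-crossing peaks (2.29 to 2.4) through peaks within one exon (2.415 to 2.615) to last-exon peaks (2.58 to 2.77).

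By log10 p the same peaks stood in no single order. Their median log10 p was higher, that is weaker, than that of junction-crossing peaks in 5 of 6 lists, by 0.667 ± 0.661 (SD; exact sign-flip permutation p = 0.09375, n = 6, adjusted p = 0.125). Against last-exon peaks it was higher in 2 lists and lower in 4, by 0.0708 ± 0.695 (exact sign-flip permutation p = 0.8125, n = 6, adjusted p = 0.8125). Both differences turned negative on plus-strand genes alone, to -1.24 and -3.69, and among the stronger 50% of each list, to -1.44 and -1.91. That 50% is chosen by p-value itself, so the last 2 values are no independent check.

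Exon 2, counted from the 5′ end, held 368 of the 1353 peaks. In single lists that was 24.6% to 31.0% of the peaks, where equal shares among the internal exons of the same transcripts would give 17.4% to 20.5%. Counting each exon once, 124 of 472 exons with a peak were exon 2, or 26.3% against 19.3% at equal shares. The exon before the last held 12.2% to 19.0% of peaks in single lists, below the equal share in each of the 6, and 16.0% against 18.9% over all peaks. Counting each exon once, it was 87 of 472, or 18.4% against 19.3%, which is close to the equal share. The 6 lists often count the same exon again. Exons are of unequal length, so equal shares are a yardstick and not an expectation. CMYA5, described below, contributed many of the exon 2 peaks: without it exon 2 held 23.8% of peaks, against 19.5% at equal shares. Host transcripts had a median of 11 or 12 exons in every list, and those of junction-crossing peaks 13.

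The lists give no exon borders, but a junction-crossing peak shows them where its blocks meet. Both borders could be read for 148 peaks in 89 exons. These exons had a median length of 222 bp (123 to 2355 bp), the peaks in them a median of 179 bp, and a peak covered a median of 64.05% of its exon. Only 13 of the 148 covered 90% or more. The median distance was 47 bp from the upstream border to the peak and 56 bp from the peak to the downstream border, with 52.7% of peaks nearer the downstream one. These exons are the ones that junction-crossing peaks reach, so they do not represent the rest. For 851 peaks neither border was seen, and those peaks were longer, with a median of 210 bp against 181 bp where a border was known.

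Joined where they overlap by at least 1 bp, the 1353 peaks formed 568 regions. Of these 313 held such a peak in 1 list only and 49 in all 6 lists, with 85, 54, 34 and 33 in 2, 3, 4 and 5 lists. The 49 were 8.63% of the regions; over all regions built the same way from 1-block peaks of every class 11.5% had one in all 6 lists. These 49 regions lay in 37 genes and held 381 of the 1353 peaks. A list without such a peak in a region often had a peak of another shape there. Over 3408 pairs of a region and a list, 1240 had a peak inside the exon, 509 had a junction-crossing internal-exon peak instead, 91 another exon-class peak, 99 a peak listed in an untranslated region and 1469 no peak. With peaks of every class, 131 regions were covered in all 6 lists, and 174 of the 313 found in 1 list were covered in at least 1 other. Between 2 lists, 51.9% to 64.8% of the peaks of one were shared by the other within Large White, 47.7% to 53.4% within Ningxiang and 45.2% to 60.2% across breeds, so the ranges overlapped.

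Recurrent peaks were the longer ones. The median length in single lists was 135 to 150.5 bp for peaks in regions of 1 list, 181 to 210 bp for regions of 2 to 5 lists and 268 to 329 bp for regions of all 6. Median folds were 2.06 to 2.35, 2.465 to 2.705 and 2.59 to 2.86, and the median log10 p went from -5.855 to -4.43 down to -24.2 to -16.7. Each list kept this order for length and for fold, while over the lists the upper ranges of fold overlap. A longer peak meets another more easily, so length and recurrence are not independent.

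**Figure D3:**
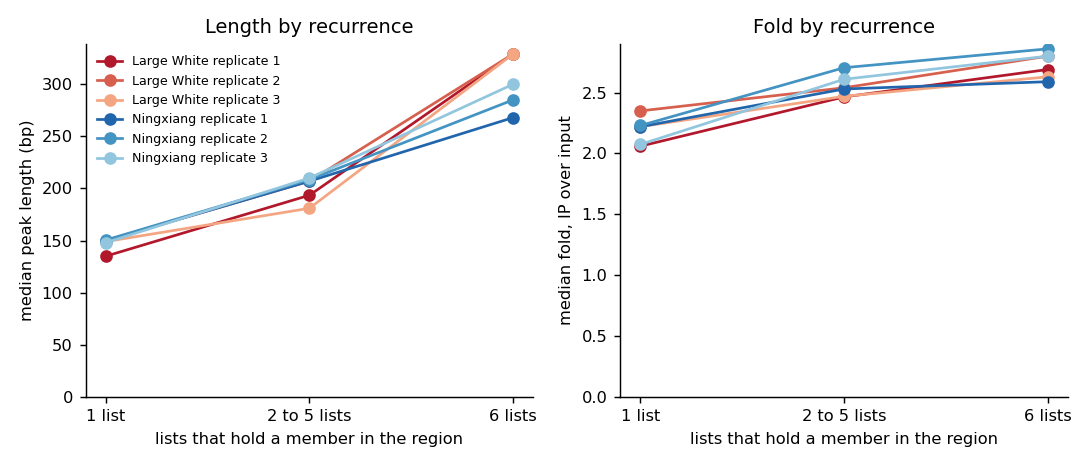
Median peak length (left, bp) and median fold over input (right, linear axis from 0) of internal-exon peaks within one exon, by the number of lists that hold one in the same region (x axis), 1 line per list. Lengths go from 135 to 150.5 bp in regions of 1 list to 268 to 329 bp in regions of all 6, and folds from 2.06 to 2.35 to 2.59 to 2.86.

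A few very large exons held many of the regions. CMYA5, which encodes a large muscle protein of the costamere and Z-disc, had 13 regions, 8 of them in all 6 lists, and 75 peaks in all. In its exon 2, of 13, 10 regions spread over 7886 bp at chromosome 2, 88447993 to 88455878 (susScr11). Large White replicates 1, 2 and 3 had 13, 10 and 12 peaks there over 3730, 4567 and 3909 bp, and Ningxiang replicates 9, 10 and 10 peaks over 1897, 3367 and 2619 bp. Every Large White list covered more of this exon than every Ningxiang list, as in the sums over all peaks of this kind. Among the other exons with 4 or more regions the same held in exon 4 of RESF1, exon 9 of FAT1 and exon 11 of SRRM2. It did not hold in exon 2 of XIRP1, with 601, 511 and 812 bp in Large White against 631, 662 and 121 bp in Ningxiang. Nor did it hold in exon 5 of LHFPL2, with 479, 449 and 719 bp against 689, 509 and 240 bp, or in exon 8 of VCAN, which had 3 regions. These exons were picked for their many regions, no share over all exons was taken, and nothing was tested. Folds in exon 2 of CMYA5 were low in all lists, from 1.55 to 2.63, while log10 p reached -102 or lower in every list for the region at 88453719 to 88454858. Between 88451202 and 88452579, a stretch of 1378 bp, no list had a peak inside the exon.

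**Figure D4:**
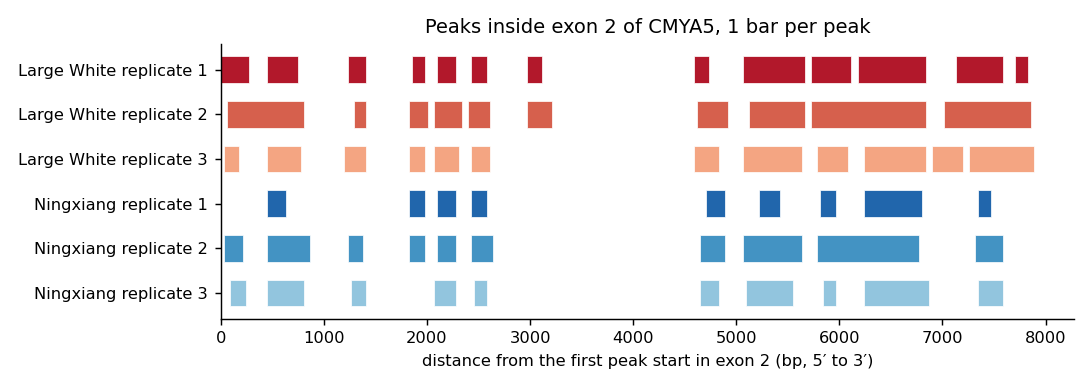
Position of each peak inside exon 2 of CMYA5 (x axis, bp from the first peak start, 5′ to 3′), 1 row per list and 1 bar per peak. The lists share 2 groups of peaks with an empty stretch of 1378 bp between them, and Large White bars cover 3730 to 4567 bp against 1897 to 3367 bp in Ningxiang.

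The other genes with the most regions were FAT1 with 10, RESF1 with 9, VCAN with 8 and SRRM2 with 7. FAT1 encodes a giant cadherin, and none of its regions had a peak in all 6 lists. RESF1, a factor of retroelement silencing, had all 9 in its exon 4 of 6, over 4858 bp on chromosome 5. Large White lists covered 2256, 1954 and 1776 bp of it and Ningxiang lists 1112, 1384 and 422 bp. VCAN encodes versican, a matrix proteoglycan whose exons 7 and 8 code for the stretches that carry chondroitin sulphate and are spliced in alternatively. Its exon 8 held 3 regions in all 6 lists over 5214 bp, and its exon 7 held 3 regions in at most 3 lists. SRRM2, a scaffold of nuclear speckles, had 5 regions in its exon 11 of 15, 2 of them in all 6 lists. Of 472 exons with a peak, 60 had 2 or more separate regions and 37 had peaks that spanned 1000 bp or more.

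From here on, the fold of a region in a list is the highest among the list's peaks there. The region with the highest minimum fold was in exon 13 of 25 of F5, the exon that encodes the B domain of coagulation factor V, at chromosome 4, 81457830 to 81459505. Its folds were 15, 33.9 and 5.89 in Large White replicates 1 to 3 and 8.59, 25.7 and 13.9 in Ningxiang. Both breeds spread widely and overlapped. The weakest of these peaks had a log10 p of -3.47, so a high fold here does not mark a strong call. F8, the related coagulation factor VIII whose B domain also lies in a large exon, had a region in all 6 lists in its exon 15 of 27, with folds from 2.97 to 5.81.

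SNCAIP, which encodes synphilin, a partner of alpha-synuclein, had 4.57, 4.59 and 6.87 in Large White and 5.73, 4.64 and 4.84 in Ningxiang in its exon 13 of 15. MAP1S, a microtubule-binding protein, had 6.21, 4.59 and 7.11 and then 9.57, 4.53 and 9.50 in exon 5 of 7. PCDH7, a protocadherin, had 2 adjoining regions, in exon 3 of 5 with folds from 4.48 to 6.46 and in exon 2 with 3.15 to 4.87. The folds of these genes overlapped between breeds. PEAK1, a pseudokinase of the cytoskeleton, ranged from 3.90 to 7.08 in exon 3 of 6, and ANKRD17, an ankyrin-repeat protein, from 3.23 to 4.48 in exon 32 of 37. In the longest VCAN region, at chromosome 2, 91768866 to 91772132, each list held 3 to 5 separate peaks. The highest fold among them ran from 3.72 to 4.78 over the lists.

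PPARGC1A, the coactivator that drives mitochondrial gene expression in muscle, had its region in exon 8 of 13 at chromosome 8, 17866604 to 17867169. Its folds were 5.24, 3.80 and 3.21 in Large White and 3.46, 5.25 and 4.92 in Ningxiang, which overlap. ANKS1A, an adaptor of receptor tyrosine kinases, had 4.19, 4.04 and 3.16 in Large White and 5.77, 8.84 and 6.51 in Ningxiang in exon 12 of 25. There the Ningxiang values lay above all Large White values. The same held in 5 of the 49 regions (10.2%), against 7.29% of all 1-block regions in all 6 lists, and the reverse in 1 (2.04%), against 6.48%. The others of the 5 were in PKD1, GAS2L1, LATS2 and FYCO1, and the 1 was in LUM, all named after their values were seen. Folds are not comparable between lists as levels of methylation, and no test was made.

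**Figure D5:**
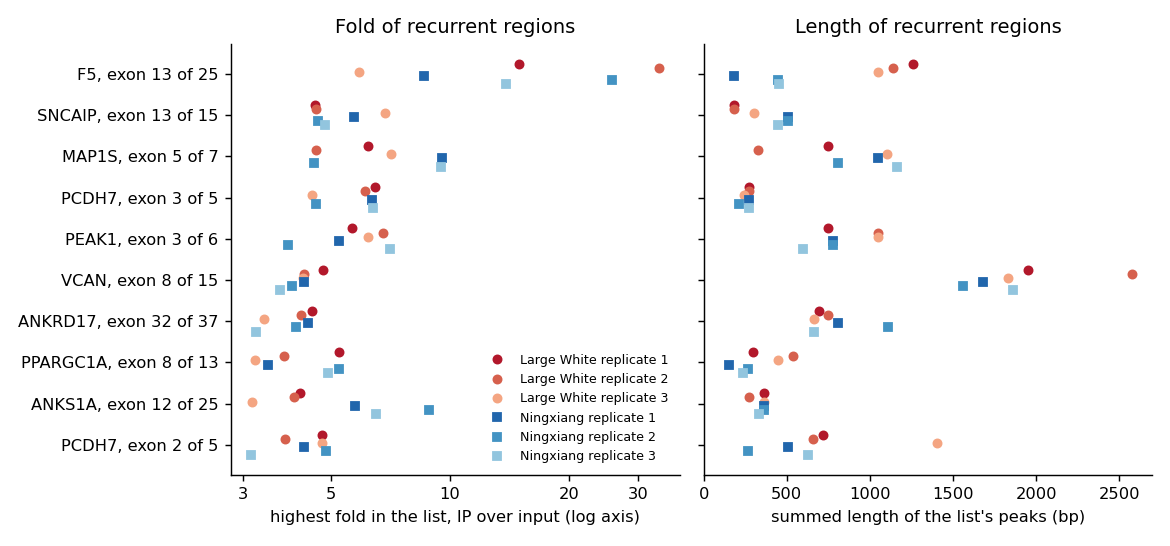
Highest fold in each list (left, log axis) and summed peak length in each list (right, bp) for the 10 regions with a peak in all 6 lists and the highest minimum fold; circles are Large White and squares Ningxiang replicates. F5 folds spread from 5.89 to 33.9, the other regions stay between 3.15 and 9.57, and F5 lengths are 1049 to 1257 bp in Large White against 180 to 452 bp in Ningxiang.

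By mean length the leading regions were in VCAN, PKD1, CMYA5, MAP1S, PEAK1, ANKRD17, F5, PCDH7 and SRRM2, where VCAN had 2 of the 10. Lengths here are summed over the peaks of a list in the region. The longest VCAN region measured 1953, 2579 and 1834 bp in Large White and 1683, 1563 and 1862 bp in Ningxiang. PKD1, which encodes polycystin, a large membrane protein, had 781, 782 and 1292 bp and 1442, 902 and 1741 bp in exon 15 of 46, with folds of 2.58, 2.80 and 2.78 and of 4.17, 4.48 and 8.07. The longest CMYA5 region had 1051, 1110 and 901 bp and 721, 990 and 751 bp. All 3 regions overlapped in length between breeds.

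The shortest recurrent regions had means from 160 to 211 bp. SLA-DRA, the alpha chain of a pig class II histocompatibility molecule, had 150, 150 and 180 bp in Large White and 180, 180 and 120 bp in Ningxiang in exon 2 of 5. MYH2, the fast IIa myosin heavy chain, had 181, 121 and 240 bp and 210, 210 and 210 bp in exon 33 of 39. Its folds stayed within 1.74 to 1.92 while its log10 p was -170 or lower in every list. Both genes have close relatives in the genome, so reads may be shared and their peaks are uncertain. GAS2L1, which links actin to microtubules, ranged from 121 to 240 bp with folds of 2.85, 2.79 and 3.07 in Large White and 3.50, 5.06 and 5.22 in Ningxiang, and 2 CMYA5 regions of exon 2 completed this group.

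The length of a recurrent region varied from list to list. In the 49 regions the longest list was a median of 2 times the shortest, and in 24 regions more than that. Large White means were longer in 29 regions, Ningxiang means in 19, with 1 equal. In 5 regions (10.2%) every Large White length lay above every Ningxiang length, against 6.88% of all such 1-block regions, and in 2 (4.08%) the reverse held, against 2.43%. The 5 were in F5, PPARGC1A, PCDH7, PEAK1 and CMYA5, named after their values were seen. F5 had 1257, 1138 and 1049 bp in Large White and 180, 450 and 452 bp in Ningxiang. PPARGC1A had 298, 536 and 447 bp against 150, 268 and 238 bp. The 2 longer in Ningxiang were SNCAIP, with 180, 180 and 300 bp against 509, 509 and 449 bp, and DNAJB1, a heat shock cochaperone, with 268, 268 and 179 bp against 417, 415 and 357 bp. For a single region such a pattern has an exact p of 0.1 at best.

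Some regions were covered by a peak of any class in every list of a single breed: 12 for Large White (2.11% of 568 regions) and 4 for Ningxiang (0.704%). Over all 1-block regions the shares were 1.44% and 1.11%. In 9 of the 12 and 3 of the 4 the gene itself had a peak elsewhere in at least 1 list of the other breed. By Fisher's exact test (two-sided) the p of such a region is 0.1, and no region can be called on its own. The counts hang on each list, since leaving one out relaxes the rule. Large White regions numbered 20, 25 and 19 without Large White replicate 1, 2 or 3, and 19 and 20 without Ningxiang replicate 2 or 3; Ningxiang regions numbered 7 without Large White replicate 1 and 11 and 16 without Ningxiang replicate 1 or 2. With the weaker 50% of peaks left out of each list, 3 and 2 regions met the rule.

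In the Large White regions NR4A2, an orphan nuclear receptor, led by mean fold, with 4.92, 2.47 and 5.47 over 416, 416 and 208 bp in exon 2 of 7 at chromosome 15, 63492344 to 63492759. NR4A2 had other peaks in all 3 Ningxiang lists. NR3C1, the glucocorticoid receptor, had 1.78, 1.76 and 2.23 in exon 2 of 9, at chromosome 2, 144926603 to 144926902. A second NR3C1 region in the same exon, at 144925883 to 144926543, had a peak in all 6 lists. NFKBIZ, a nuclear regulator of NF-kappaB targets, had 2.86, 3.78 and 2.49, and no Ningxiang list had a peak on it. TNFAIP3, which damps NF-kappaB signals, had 2.48 and 2.95 in replicates 1 and 2. ADAM17, the protease that sheds tumour necrosis factor, had 4.28 and 3.67 in the same replicates. In replicate 3 a peak of another class covered both regions. A second TNFAIP3 region in the same exon 6, at 26478302 to 26478541, was not limited to Large White. It had 2.4 and 4 in Large White replicates 1 and 2 and 4.14 in Ningxiang replicate 3.

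RESF1 had a Large White region in exon 4, beside regions shared by both breeds, with folds of 3.23, 3.94 and 3.70. PEAK1 had one in exon 5 of 6, apart from its shared regions in exon 3, with folds of 2.35, 2.79 and 2.45. CFL2, the muscle cofilin that severs actin filaments, had 1.74, 1.79 and 1.95 over 181, 121 and 181 bp in exon 2 of 4, at chromosome 7, 65091419 to 65091599. ART3, an ADP-ribosyltransferase family member, had 1.62, 1.72 and 1.61 in exon 3 of 11. No Ningxiang list had a peak on CFL2. CFL2 and ART3, named after their values were seen because they fall below the leading 10 by mean fold, had low folds but log10 p of -30.1 and -39.5 or lower. TPPP, a tubulin-binding protein, KLF12, a zinc-finger repressor, and ANKHD1 had a peak inside the exon in 1 Large White list each. In the other Large White lists a peak of another class covered the region. KLF12 had a second region in the same exon 3, with a peak of 179 bp in Ningxiang replicate 3.

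Among the 4 Ningxiang regions only SERPINH1, the collagen chaperone, had a peak inside the exon in all 3 lists, with folds of 1.73, 1.65 and 4.53 over 327, 179 and 476 bp in exon 2 of 6, at chromosome 9, 9787501 to 9787976. Replicate 3 stood far above the others there. KEAP1, the sensor that holds back NRF2, had 1.58 and 1.56 in replicates 1 and 3. STX16, a Golgi syntaxin, had 1.98 in replicate 1, and PLIN5, the lipid droplet protein of oxidative muscle, had 1.91 in replicate 3. These last 3 genes also had peaks in 2 or 3 Large White lists.

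Genes from 8 lists that fit the tissue were counted among those with any peak. Of all genes with any peak 18.2% had one inside an internal exon. The counts were 6 of 17 for sarcomere and Z-disc genes, 1 of 7 for calcium handling, 5 of 12 for myogenic regulators and 7 of 19 for lipid metabolism. They were 3 of 9 for extracellular matrix and fibroblast genes, 3 of 4 for endothelial and blood genes, 2 of 12 for insulin and growth factor signalling and 2 of 3 for the m6A machinery. In 6 of the 8 lists the share lay above that of all genes, and for calcium handling and insulin and growth factor signalling below it. The lists are small and were chosen with earlier results of these data known. The shares were not tested, and no enrichment is read from them. CMYA5 is in none of the lists. A region in all 6 lists was found for MYH2, LUM, VCAN and F5 alone among them.

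XIRP1, an actin-binding protein of muscle attachment sites, had 4 regions in its exon 2 of 4 over 2610 bp of chromosome 13, with folds from 1.64 to 2.19. The region at 23872544 to 23872963 had 2, 1.70 and 2.19 in Large White and 2.13 and 2.11 in Ningxiang replicates 1 and 2, with none in replicate 3. LUM, the collagen-binding proteoglycan lumican, had 538, 538 and 509 bp in Large White and 210, 567 and 329 bp in Ningxiang in exon 2 of 3, with folds of 1.93, 2.11 and 2.10 and of 1.77, 1.82 and 1.83. FOXO1, a transcription factor of muscle protein breakdown, had a region in exon 2 of 3 at chromosome 11, 15321454 to 15322384. Its folds were 3.78, 3.4 and 3.20 in Large White and 2.41 and 2.32 in Ningxiang replicates 1 and 2; in replicate 3 only a peak of another class covered it. ACACB, the acetyl-CoA carboxylase that restrains fat oxidation, had 3.35, 2.32 and 1.79 in Large White and 3.26 and 3.00 in Ningxiang replicates 2 and 3 in exon 3 of 56.

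Myogenic regulators had such peaks in at most 3 lists per region. MYF5, an early factor of the muscle lineage, had 3.12 in Large White replicate 1 and 6.85 and 3.82 in Ningxiang replicates 1 and 3, and MEF2C had 1.65 in Large White replicate 2 and 2 and 1.76 in Ningxiang replicates 1 and 2. MEF2A, MSTN, the inhibitor of muscle growth, and SIX4 had 1 peak each. The MSTN site was covered by peaks of some class in all 6 lists although only Ningxiang replicate 1 had one inside the exon, with a fold of 1.77 over 179 bp. FTO, the m6A demethylase, had 1.90 and 1.94 in Large White replicates 2 and 3 and 2.86 in Ningxiang replicate 3, over 120 to 149 bp in exon 3 of 9. WTAP, a subunit of the m6A writer complex, had 1 such peak, with a fold of 3.04 over 328 bp in Large White replicate 2, and peaks of other classes covered its site in the other lists.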

How the data were processed

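The data were 6 deposited peak lists, 1 per replicate, each assigned to the immunoprecipitated sample whose label names it. Per the submitters' processing notes, the build was susScr11 and the tools included HOMER, ChIPseeker 1.30.2 and FastQC 0.11.9. No aligner or peak caller is named: not given in the sources used here. Per the file headers, each peak has a p-value, a fold enrichment (a ratio on a linear scale) and a log10 p, treated here as a score because it runs far below zero, all made by the authors and deposited. They served for description, ranking or filtering. Tests and filters used them inside 1 list at a time. Folds of several lists were set side by side, without a test, to rank regions, compare breeds and check replicate numbers. Deposited starts count from 0 and the listed width is 1 bp too long, so 1 was added to starts and length was taken from the block, in all 1353 peaks equal to end minus start. Exon numbers rise along the chromosome on both strands (440 of 440 plus-strand and 536 of 536 minus-strand transcripts), so minus-strand numbers were turned round. The gene is the one named in the exon annotation; 20 peaks list another nearest gene, and 386 of 394 genes matched RefSeq names on Sscrofa11.1 by transcript.

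Exact permutation tests compared breeds (3 lists against 3) and exact sign-flip tests compared classes within 6 lists, with Benjamini-Hochberg adjustment over 5 and 4 comparisons. Regions and their counting were checked on simulated 1-block peaks set far apart. Junction-crossing peaks and neighbouring regions in an exon were not part of that check. Named regions with a peak in all 6 lists were the 10 with the highest minimum fold, the 10 longest and the 5 shortest; also named were the 5 genes with the most regions, up to 10 breed-only regions a breed by mean fold and members of 8 gene lists. Members and lists were chosen with earlier results of these data known. Same-numbered lists deviated together over the 49 regions of all 6 lists (correlations of log2 fold deviations 0.295, 0.368 and 0.165). Such a pairing comes from this check on the same folds, not the labels, and is weak. Large White 3 correlated better with Ningxiang 1 (0.247) than with Ningxiang 3, and Large White 1 with Ningxiang 2 at 0.125. The main breed tests did not pair the lists, and a block by replicate number was run only as an alternative. Python 3.11.15, pandas 2.3.3, NumPy 2.4.6, SciPy 1.17.1 and matplotlib 3.10.9 were used. No sequence is shown, and input reads were not analysed here.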

Additional observations from a re-analysis of the deposited data

How the results depend on the processing

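Peak counts, gene counts, lengths and shares never passed 0.05 between breeds under any alternative run, and 3 lists against 3 could not. With the replicate block the mean differences are the same (17.7 peaks, 7 genes, -0.340 percentage points, -1 bp and 2.11 points) and the exact p was 0.25 or 0.5, where 3 pairs cannot go below 0.25; it changed no call. Differences are Large White minus Ningxiang. At 2034 peaks per list they reversed to -12.7 peaks, -15 genes and 11.2 bp; on plus-strand genes the median length reversed to 5.17 bp, and on minus-strand genes the share to 0.100 points. Leaving out 1 list moved the median length from -10.7 to 8.17 bp and the share from -0.626 to 0.00611 points. The cause was not tested.

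Fold contrasts kept their direction under every alternative run made. None was made on minus-strand genes alone, which held 2816 last-exon-class peaks against 461 on plus-strand genes. Against junction-crossing peaks the log2 difference was 0.085 in the stronger 50% of each list and 0.066 at 100 to 300 bp; against last-exon peaks it was -0.14, -0.12 and, on plus-strand genes, -0.30. These had an adjusted p of 0.0417, because another contrast then also reached the smallest p; with 5 lists the smallest is 0.0625. On plus-strand genes the contrast with junction-crossing peaks fell to 0.041 (exact sign-flip permutation, adjusted p = 0.25). The log10 p contrast with junction-crossing peaks was 1.303 at 100 to 300 bp and reversed to -1.44 in the stronger 50% and -1.24 on plus-strand genes. That with last-exon peaks reversed to -1.91 and -3.69 there, and ran from -0.167 to 0.247 with 1 list left out. The stronger 50% is chosen by p-value, so its log10 p contrasts compare only peaks beyond that cut and are no independent check. Breed-only regions fell from 12 and 4 to 3 and 2 in the stronger 50%, to 7 and 2 by peaks inside the exon alone, and ran from 16 to 25 and 5 to 16 with 1 list left out. Regions in all 6 lists became 131 with peaks of every class. Unknown depth limits every statement of absence.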

Other observations

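Further regions with a peak inside an internal exon in all 6 lists lay in regulators that the text above does not describe; they are named here after their values were seen. DUSP1, a phosphatase that switches off MAP kinases, varied little, at 299 to 329 bp with folds from 2.73 to 4.13 and log10 p of -132 or lower. KLF10 and BCL6, transcription factors of early response and of repression, had folds from 2.20 to 2.79 and from 2.71 to 3.4. NCOA1, a coactivator of nuclear receptors, ranged from 2.55 to 3.87, FOXN3, a forkhead repressor, from 2.22 to 3.01. LATS2, a kinase of the Hippo pathway, had 2.29, 2.25 and 2.81 in Large White and 3.52, 3.07 and 7.81 in Ningxiang. PRKAA2, the catalytic AMPK subunit of muscle, ranged from 2.16 to 3.10 over 209 to 299 bp in exon 7 of 9.

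AKAP1, which anchors protein kinase A to mitochondria, had a fold of 20.7 in Ningxiang replicate 3 and of 2.91 to 6.18 in the other lists, over 358 to 655 bp in exon 2 of 12.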
